A study of Mus musculus with 8 samples.

Results

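The 42 genes described here encode the machinery of mitosis: Cdk1 and its cyclins, the Aurora, Polo-like and NIMA-related kinases, the chromosomal passenger subunits, the spindle assembly checkpoint, the anaphase trigger, the kinetochore, the mitotic kinesins and the proteins of the spindle midzone, with the transcription factor Foxm1 and the proliferation marker Mki67. They were given as a list of gene symbols, and all 42 were found among the 24419 genes of the count table, 1 of them (Knl1) under the older symbol Casc5. Expression was measured by bulk RNA-seq in 4 mouse models of endometrial cancer, with 2 libraries per model. Endometrial organoids were edited, transplanted into the uterus of nude mice, and the tumor tissue was taken about 2 months later. The sample labels name tumor organoids instead of tissue. The TPM edits included an sgRNA against Trp53 and a Myc cDNA. TPMCa carried in addition a Pik3ca E545K cDNA, and TPMR1 an sgRNA against Pik3r1. The TPK edits included the Trp53 sgRNA without the Myc cDNA. Further edits of the 4 models are not described here. Introduced cDNAs and sgRNAs act in the transplanted epithelial cells, while the host cells of a tumor carry none of them.

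Mitosis is driven by waves of protein kinase activity. Cyclin-bound Cdk1 starts chromosome condensation and spindle assembly, Polo-like and Aurora kinases build the spindle poles and correct faulty attachments, and kinesin motors slide microtubules and carry chromosomes. The spindle assembly checkpoint holds back Cdc20, the activator of the anaphase-promoting complex, until every kinetochore is attached, and separase then cuts the cohesin that joins sister chromatids. Transcripts of most of these genes are made late in the cell cycle, under the MuvB complex with B-Myb and Foxm1, and are kept low in resting cells. In bulk RNA, a smaller share of dividing cells and less RNA per cell cannot be told apart.

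Libraries held between 15748396 and 26943611 counts. The lowest level treated as detected, 3 counts, corresponds to 0.116 CPM in the deepest library and 0.198 CPM in the shallowest, a limit for counting error alone. CPM are counts scaled to a common library size with TMM factors from edgeR. Every one of the 42 genes passed the filter on low counts and entered a single quasi-likelihood fit over all 8 libraries and 15875 genes, with p-values adjusted by the Benjamini-Hochberg method. The labelled material was checked against marker genes of cell types. The 6 epithelial markers summed to between 2941 and 5498 CPM in the TPM and TPK libraries, but only to between 6.47 and 73.3 CPM in TPMCa and TPMR1, where Cdh1 was at most 6.97 CPM. The 5 steroid synthesis genes summed to 5078 and 446 CPM in the TPMR1 libraries and to at most 22.7 CPM in every other library. Fibroblast markers reached 904 CPM or more and macrophage markers 302 CPM or more in every library. The TPMR1 libraries were the least alike, with 2701 genes over 4-fold apart, against 749 in TPM, 972 in TPK and 1293 in TPMCa.

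The mitotic genes were higher in TPMCa and TPMR1 than in TPM and TPK. Summed over the 42 genes, the level was 1689.9 and 1914 CPM in the TPM libraries, 3077 and 2738 CPM in TPMCa, 2239.8 and 3412 CPM in TPMR1, and 1844 and 1375 CPM in TPK. Each of the 4 TPMCa and TPMR1 libraries lay above each of the 4 TPM and TPK libraries, while TPM and TPK overlapped. The median deviation of the 42 genes from their mean over the models gave the same split: -0.35 and -0.16 on the log2 scale in TPM, 0.52 and 0.39 in TPMCa, 0.02 and 0.63 in TPMR1 and -0.20 and -0.72 in TPK. For all genes tested, the same median stayed between -0.05 and 0.03 in every library. Replicate 1 of TPMR1 was closer to the TPM libraries than to its own replicate, which was higher in 40 of the 42 genes, with a median difference of -0.70 (replicate 1 minus replicate 2, log2 scale). In TPK, replicate 1 was the higher library in 36 of 42 genes.

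**Figure D1:**
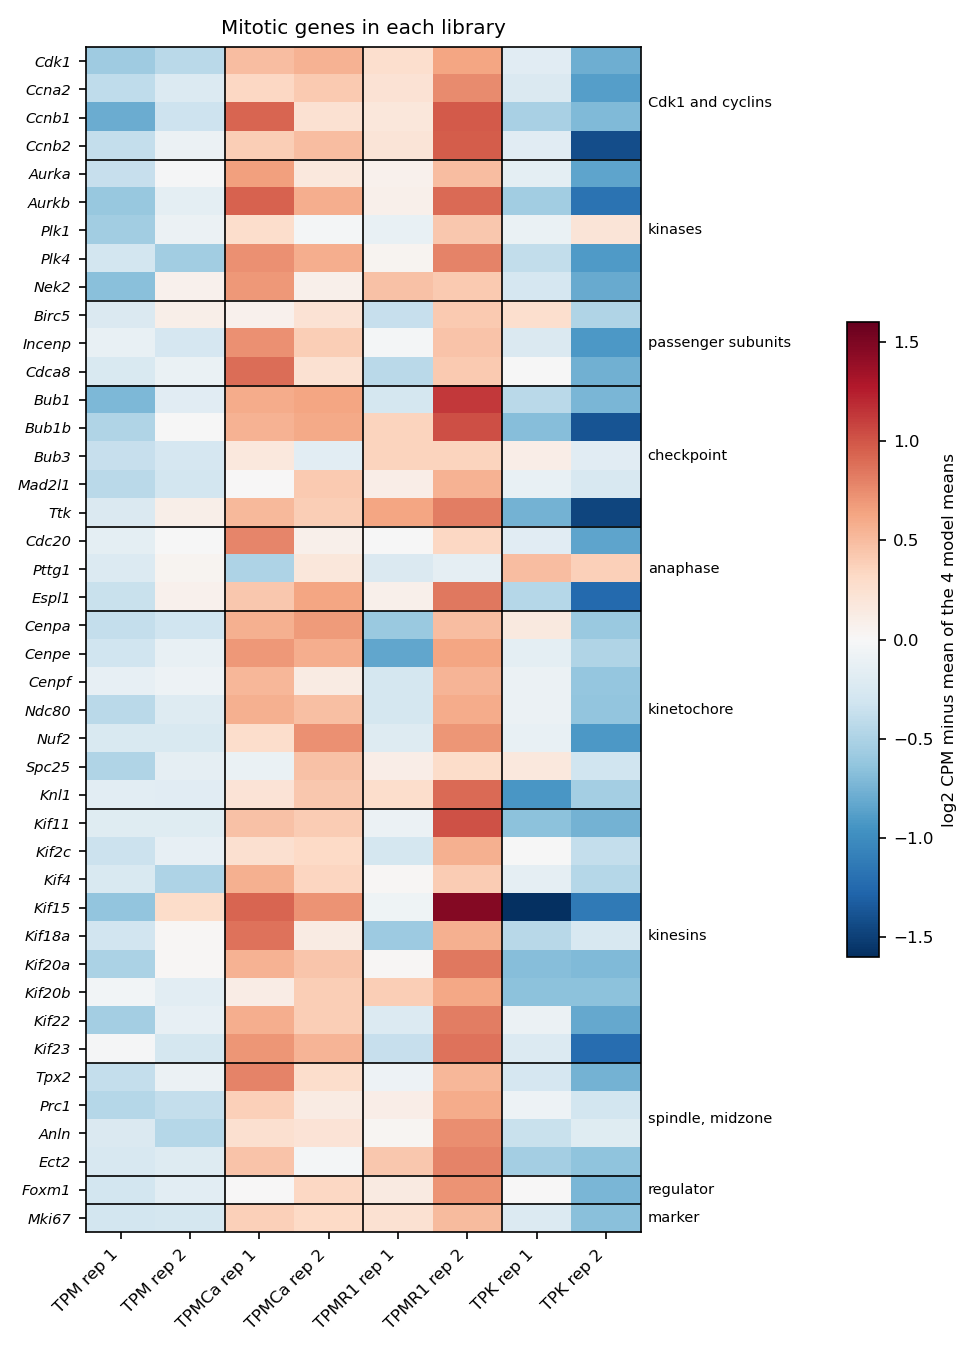
Log2 CPM of the 42 mitotic genes (rows, grouped by role) in each of the 8 libraries (columns), as the difference from the mean of the 4 model means. Most rows are red in TPMCa and TPMR1 replicate 2 and blue in TPM and TPK replicate 2, with Pttg1 and Plk1 among the exceptions.

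**Figure D2:**
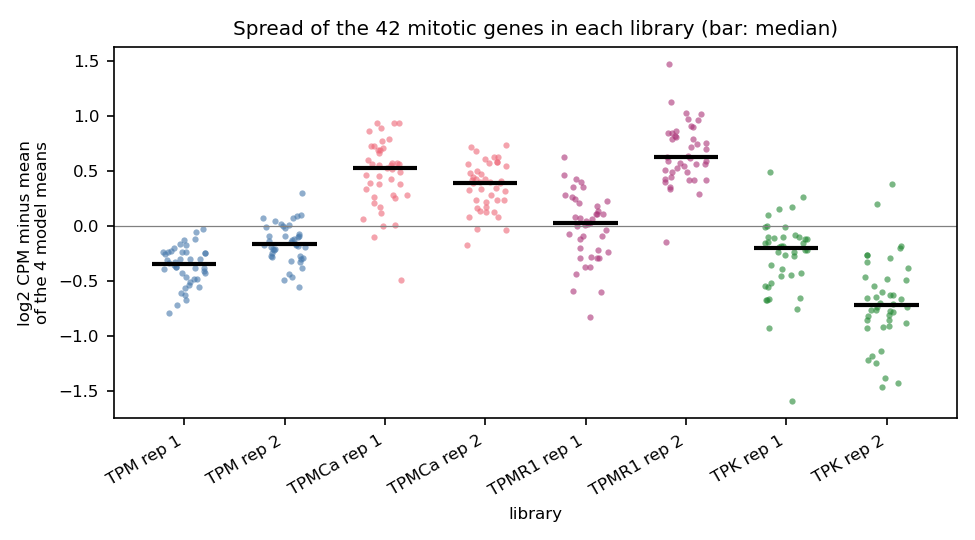
The same deviations as 1 point per gene and library (vertical axis, log2 scale), with a bar at the median of the 42 genes. The medians run from -0.72 in TPK replicate 2 to 0.63 in TPMR1 replicate 2.

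TPK was compared with the mean of TPMCa and TPMR1. With all 8 libraries in edgeR, mitotic genes passed the threshold in this alone of the 6 pairwise or pooled comparisons. Of the 42 genes, 41 had a fitted log2 fold change below 0, when 49.9% of all genes tested lay above 0, and 7 fell at an adjusted p under 0.05 (edgeR quasi-likelihood test), when 4.06% of all genes tested were called lower and 14.4% were called in either direction. The median over the 42 genes was -0.87, against -0.002 over all genes tested. In 27 of the 42 genes both TPK libraries lay below all 4 TPMCa and TPMR1 libraries, which held for 18.5% of all genes. At an unadjusted p under 0.05, 24 were lower (13.3% of all genes). Of these, 15 also had a log2 fold change beyond 1 (25.2% of all genes in either direction, 1541 of 15875 genes lower). The genes called were the checkpoint genes Bub1b and Ttk, the Aurora kinase Aurkb, the kinesins Kif15, Kif20a and Kif20b, and the cytokinesis factor Ect2. The calls rested on few libraries: they did not hold when either TPK library or either TPMCa library was left out. Without replicate 1 of TPMR1 the median over the 42 genes was -0.99. In edgeR, the other comparisons had calls among the 42 genes only when 1 of the TPMR1 libraries was left out. The epithelial markers moved with the same split of models, and their part in the result was not tested. Between TPK and TPM, edgeR called 0 of the 42 genes and 0% of all genes. Below, a change in TPK with no named reference is against the mean of TPMCa and TPMR1.

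All 4 genes of mitotic entry separated TPMCa and TPMR1 from TPM and TPK without overlap, and the share of all genes with this split was not computed. Both TPMCa libraries were above both TPM libraries in 29.1% of all genes. In 18.5% of all genes both TPK libraries were below all 4 TPMCa and TPMR1 libraries. Cdk1, the kinase that starts mitosis, on chromosome 10 of GRCm38 from 69335146 to 69352938, lay at 50.3 and 55.3 CPM in TPM, 105 and 110.0 CPM in TPMCa, 89.5 and 116 CPM in TPMR1 and 65.8 and 43.5 CPM in TPK. The lowest TPMCa or TPMR1 library was well above the highest TPM or TPK library. Against TPM, Cdk1 had the smallest p of the 42 genes in both TPMCa (log2 fold change 1.03 ± 0.28 (SE), adjusted p = 0.105) and TPMR1 (log2 fold change 0.96 ± 0.28 (SE), adjusted p = 0.106, edgeR), and neither passed the threshold. Ccnb1, the B-type cyclin that binds Cdk1 at entry into mitosis, lay at 43.5 and 59.7 CPM in TPM, 144 and 88.6 CPM in TPMCa, 85.1 and 148 CPM in TPMR1 and 52.6 and 46.1 CPM in TPK. All 4 TPMCa and TPMR1 libraries were again above the other 4, with unequal replicates in both of these models. In TPK, the change against the mean of TPMCa and TPMR1 was -0.94 for Cdk1 (adjusted p = 0.054, edgeR) and -1.24 for Ccnb1 (adjusted p = 0.0595, edgeR). Ccna2, the A-type cyclin that acts from S phase into mitosis, lay at 47.8 and 54.7 CPM in TPM, 80.2 and 84.9 CPM in TPMCa, 74.7 and 107 CPM in TPMR1 and 54.1 and 34.5 CPM in TPK. Ccnb2, another B-type cyclin, lay at 34.6 and 42.1 CPM in TPM, 59.1 and 63.5 CPM in TPMCa, 51.9 and 87.8 CPM in TPMR1 and 39.7 and 16.7 CPM in TPK. Both kept the 2 pairs of models apart, and Ccnb2 had its lowest value by far in replicate 2 of TPK. Of the Ccna2 exon bases, 510 overlap Exosc9 on the opposite strand, and whether the counting used strand is not given in the sources used here.

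Promoters of late cell cycle genes are known for CCAAT boxes, bound by NF-Y, and for the cell cycle genes homology region (CHR), bound by the MuvB complex. No promoter window was listed for Ccna2, Aurkb, Incenp, Kif20a, Tpx2 and Foxm1. Aurkb and Kif20a, both called in TPK, are therefore absent from the motif values. Windows from 250 bases before to 50 bases after the RefSeq start (GRCm38.p6) were listed for the other 36 of the 42 genes. They were searched on both strands for the CHR, written TTTGAA in one of its forms and with the letters TTCGAA in the other form used, for the CCAAT box by the letters of its name, and for 4 E2F sites (TTTCGCGC, TTTGGCGC, TTTCCCGC and TTTGCCGC). The first 120 bases before the start are shown for 8 genes: Cdk1 and Ccnb2 for mitotic entry, Bub1 and Ttk for the checkpoint, Cdc20 and Espl1 for anaphase, Kif11 for the kinesins, and Plk1 as the kinase with the smallest change in TPK. Each reads 5′ to 3′ on the strand of its gene, ends at the base before the start, and has in capitals every match to either motif. A CHR read from the other strand appears as TTCAAA. A box read from the other strand appears with the letters ATTGG in place of those of its name.
Cdk1, chr10:69352913-69353032, - strand: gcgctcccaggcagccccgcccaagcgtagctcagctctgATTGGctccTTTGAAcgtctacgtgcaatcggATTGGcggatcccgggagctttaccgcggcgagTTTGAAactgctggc
Ccnb2, chr9:70421555-70421674, - strand: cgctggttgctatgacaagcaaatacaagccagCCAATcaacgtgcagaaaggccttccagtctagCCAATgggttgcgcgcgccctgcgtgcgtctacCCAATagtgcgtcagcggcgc
Bub1, chr2:127831860-127831979, - strand: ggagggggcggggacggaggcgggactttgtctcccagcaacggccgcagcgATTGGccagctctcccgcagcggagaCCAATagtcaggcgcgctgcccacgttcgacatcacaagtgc
Ttk, chr9:83834569-83834688, + strand: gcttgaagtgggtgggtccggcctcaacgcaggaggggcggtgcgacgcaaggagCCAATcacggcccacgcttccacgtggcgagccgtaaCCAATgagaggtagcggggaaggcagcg
Cdc20, chr4:118437344-118437463, - strand: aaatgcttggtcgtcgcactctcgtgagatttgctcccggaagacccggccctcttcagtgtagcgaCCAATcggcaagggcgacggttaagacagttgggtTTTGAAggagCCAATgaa
Espl1, chr15:102296173-102296292, + strand: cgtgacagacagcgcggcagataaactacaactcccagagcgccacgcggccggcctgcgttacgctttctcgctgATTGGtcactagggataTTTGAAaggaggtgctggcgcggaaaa
Kif11, chr19:37376262-37376381, + strand: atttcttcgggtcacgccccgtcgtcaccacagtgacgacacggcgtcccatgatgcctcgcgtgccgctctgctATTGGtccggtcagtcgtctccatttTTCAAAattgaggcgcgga
Plk1, chr7:122159315-122159434, + strand: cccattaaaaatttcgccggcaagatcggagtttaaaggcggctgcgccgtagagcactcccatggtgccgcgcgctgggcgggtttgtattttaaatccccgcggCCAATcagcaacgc

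In these stretches the CCAAT matches came in pairs or triplets in 5 of the 8 genes, 32 bases apart in Cdk1 and 33 and 33 bases apart in Ccnb2. For Bub1, Ttk, Ccnb2 and Plk1 the CHR nearest to the start lay downstream of it, between 4 and 30 bases, and is therefore not in the printed stretch. Over the 36 windows, 27 held a CHR (75.0%), against 14.1% of the 11850 tested genes with a window. CCAAT was found in 24 (66.7%), against 38.1%, and 2 or more CCAAT in 17 (47.2%), against 13.8%. Both motifs stood together in 21 windows (58.3%), against 5.78% of tested genes. The E2F letters were in 3 windows (8.33%), against 3.73%. CHR and CCAAT matches shared bases in 1 place only. The genes with a CHR had a median log2 fold change of -0.82 (n = 27) in TPK against the mean of TPMCa and TPMR1. Those without had -0.68 (n = 9), with wide overlap between the ranges of -2.21 to -0.10 and -1.24 to 0.59. In TPM against the same mean, the medians were -0.655 with a CHR and -0.654 without.

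**Figure D3:**
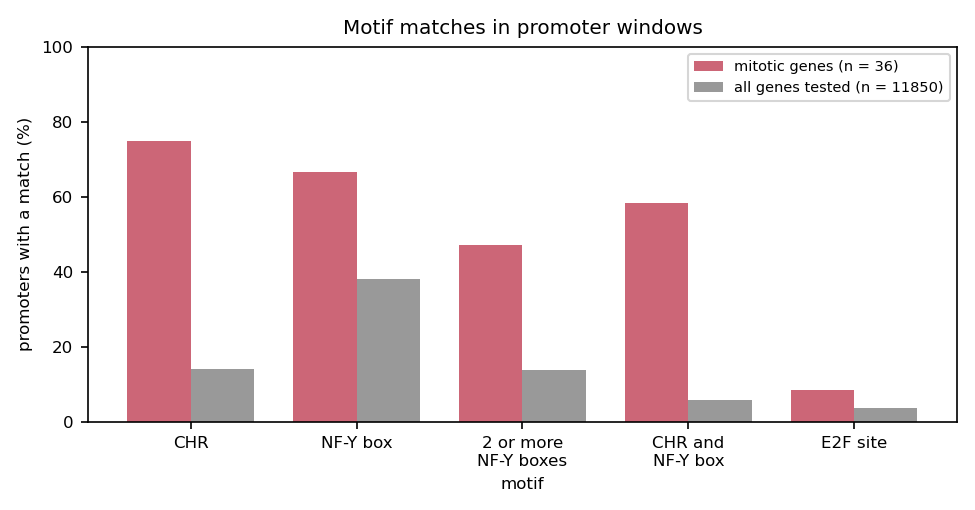
Share of promoter windows (vertical axis, percent) with at least 1 match of each motif (the NF-Y box is the CCAAT box), for the 36 mitotic genes with a window and for the 11850 tested genes with a window. CHR matches stand at 75.0% against 14.1%, while E2F letters are rare in both.

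The 5 further mitotic kinases did not behave alike. Aurkb, the Aurora kinase of the chromosomal passenger complex that corrects attachment errors, on chromosome 11 of GRCm38 from 69045647 to 69051664, lay at 28.8 and 39.3 CPM in TPM, 84.3 and 65.6 CPM in TPMCa, 46.3 and 82.3 CPM in TPMR1 and 29.9 and 19.4 CPM in TPK. Its TPMCa and TPMR1 libraries lay above all others. Aurkb fell in TPK against the mean of TPMCa and TPMR1 (log2 fold change -1.49 ± 0.36 (SE), adjusted p = 0.0391, edgeR). Against TPM, its change in TPK did not pass (log2 fold change -0.47, adjusted p = 0.822, edgeR). Aurka, the Aurora kinase of the spindle poles, lay at 33.7 and 43 CPM in TPM, 68.8 and 48.9 CPM in TPMCa, 45.5 and 61.1 CPM in TPMR1 and 39.1 and 24.1 CPM in TPK, and its change in TPK did not pass (log2 fold change -0.82 ± 0.32 (SE), adjusted p = 0.129, edgeR). Plk4, which starts centriole duplication, lay at 18.9 and 15.8 CPM in TPM, 38.4 and 34.7 CPM in TPMCa, 24 and 40.2 CPM in TPMR1 and 17.7 and 12.4 CPM in TPK. Both TPK libraries and both TPM libraries were below all others, at log2 fold change -1.18 ± 0.34 (SE), adjusted p = 0.0632 (edgeR) for TPK. Plk1, the Polo-like kinase of spindle poles, kinetochores and midzone, lay at 41.1 and 56.3 CPM in TPM, 73 and 58.6 CPM in TPMCa, 55.3 and 81 CPM in TPMR1 and 55.8 and 69.2 CPM in TPK. The Plk1 values of TPK lay inside the range of TPMCa and TPMR1 (log2 fold change -0.10 ± 0.27 (SE), adjusted p = 0.831, edgeR), and the sign of this difference turned to 0.05 without replicate 2 of TPMR1 and to 0.03 without replicate 1 of TPK. Nek2, a kinase that separates the centrosomes, lay at 22.8 and 38.2 CPM in TPM, 58.8 and 38.4 CPM in TPMCa, 50.2 and 48.5 CPM in TPMR1 and 30.2 and 20.8 CPM in TPK.

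The passenger subunits, which carry Aurora B to the centromeres, had smaller and less even differences than the kinase itself. Birc5, or survivin, lay at 40.3 and 50.6 CPM in TPM, 49.7 and 55.9 CPM in TPMCa, 36.8 and 63.6 CPM in TPMR1 and 57.3 and 34.1 CPM in TPK, with all models overlapping. Incenp, the scaffold of the complex, lay at 71.4 and 64.5 CPM in TPM, 129 and 102 CPM in TPMCa, 75.7 and 106 CPM in TPMR1 and 65.8 and 41.1 CPM in TPK. Cdca8, or borealin, lay at 43.9 and 48.4 CPM in TPM, 96.2 and 61.3 CPM in TPMCa, 38.4 and 69.5 CPM in TPMR1 and 51.5 and 30.4 CPM in TPK. In both Incenp and Cdca8 the TPMCa libraries were above the TPM and TPK libraries, while replicate 1 of TPMR1 was not clearly so. None of the 3 passed the threshold in any comparison in edgeR with all 8 libraries, while DESeq2 called Incenp lower in TPK than in the mean of TPMCa and TPMR1.

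Of the 5 spindle assembly checkpoint genes, Bub1b and Ttk fell in TPK and the other 3 did not pass the threshold in edgeR, while Bub1 was called as well by DESeq2, and by edgeR without replicate 1 of TPMR1. Bub1b, or BubR1, a subunit of the complex that inhibits the anaphase-promoting complex, on chromosome 2 of GRCm38 from 118598211 to 118641591, lay at 58.2 and 80.7 CPM in TPM, 119 and 124 CPM in TPMCa, 104 and 166 CPM in TPMR1 and 50.8 and 31.1 CPM in TPK. Both TPK libraries were below every other library, and Bub1b fell against the mean of TPMCa and TPMR1 (log2 fold change -1.64 ± 0.34 (SE), adjusted p = 0.0235, edgeR). Ttk, or Mps1, the kinase that switches on the checkpoint, on chromosome 9 of GRCm38 from 83834689 to 83872389, lay at 14.1 and 17.7 CPM in TPM, 23.7 and 21.7 CPM in TPMCa, 25.6 and 29.1 CPM in TPMR1 and 9.83 and 6 CPM in TPK. Ttk ran in 3 steps, lowest in TPK, then TPM, then TPMCa and TPMR1, with no overlap between steps. It fell in TPK against the mean of TPMCa and TPMR1 (log2 fold change -1.65 ± 0.35 (SE), adjusted p = 0.0266, edgeR) and had the smallest p of the 42 in TPK against TPM (log2 fold change -1.01 ± 0.38 (SE), adjusted p = 0.683, edgeR). Bub1, the kinase that marks centromeres for checkpoint proteins, lay at 20.3 and 29.3 CPM in TPM, 50.5 and 51.6 CPM in TPMCa, 27.4 and 72.9 CPM in TPMR1 and 24.9 and 20 CPM in TPK, and its change in TPK did not pass (log2 fold change -1.17 ± 0.43 (SE), adjusted p = 0.119, edgeR). Replicate 1 of TPMR1 was inside the range of TPM. Bub3, the adaptor that brings Bub1 and BubR1 to the kinetochore, lay at 80.8 and 86.5 CPM in TPM, 117 and 92.8 CPM in TPMCa, 134 and 133 CPM in TPMR1 and 112 and 91.7 CPM in TPK, with log2 fold change -0.22 ± 0.21 (SE), adjusted p = 0.505 (edgeR) in TPK. Mad2l1, which binds and blocks Cdc20, lay at 24.6 and 26.9 CPM in TPM, 33.3 and 44.5 CPM in TPMCa, 35.8 and 48.9 CPM in TPMR1 and 30.5 and 27.6 CPM in TPK. In Bub3 and Mad2l1, both TPK libraries were above both TPM libraries, the reverse of Bub1b and Ttk.

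Of the 3 genes of the anaphase trigger, securin ran opposite to the rest. Cdc20, the activator of the anaphase-promoting complex, lay at 92.2 and 103 CPM in TPM, 176 and 109 CPM in TPMCa, 103 and 130.1 CPM in TPMR1 and 90.5 and 57.2 CPM in TPK (log2 fold change -0.80 ± 0.31 (SE), adjusted p = 0.129 in TPK against the mean of TPMCa and TPMR1, edgeR). Espl1, or separase, the protease that cuts cohesin, lay at 42 and 56.5 CPM in TPM, 72.4 and 83 CPM in TPMCa, 57.1 and 96.5 CPM in TPMR1 and 39.1 and 22.7 CPM in TPK. Both TPK libraries of both genes were below every other library. Pttg1, or securin, which binds and inhibits separase, lay at 17.2 and 20.6 CPM in TPM, 14.2 and 22.7 CPM in TPMCa, 17 and 18.1 CPM in TPMR1 and 28.2 and 26.2 CPM in TPK. It was named here after its values were seen: both TPK libraries were above all 6 others, and its change of 0.59 against the mean of TPMCa and TPMR1 did not pass (adjusted p = 0.221, edgeR). Pttg1 was the single gene of the 42 above 0 in that comparison. No CHR, CCAAT or E2F match was found in its promoter window. The windows of Plk4 (log2 fold change -1.18), Nuf2 (-0.88), Mad2l1 (-0.48) and Birc5 (-0.17) held no match either, and these genes were below 0.

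The 7 kinetochore genes had no call in any comparison in edgeR with all 8 libraries. DESeq2 called Knl1 lower in TPK than in the mean of TPMCa and TPMR1, and without replicate 1 of TPMR1 edgeR called Knl1 and Cenpe there. Without replicate 2 of TPMR1, edgeR called Cenpe between TPMR1 and TPMCa. Cenpe, the kinesin that carries chromosomes to the spindle equator, lay at 35.2 and 40.7 CPM in TPM, 71.1 and 66 CPM in TPMCa, 24.9 and 68.6 CPM in TPMR1 and 39.6 and 31.5 CPM in TPK (log2 fold change -0.67 ± 0.41 (SE), adjusted p = 0.305 in TPK, edgeR). Its lowest library was replicate 1 of TPMR1. Knl1, the scaffold that recruits the Bub proteins, lay at 15.8 and 15.7 CPM in TPM, 20.6 and 23.9 CPM in TPMCa, 21.6 and 33.3 CPM in TPMR1 and 9.37 and 12.2 CPM in TPK. It was the single kinetochore gene of the 7 whose TPK libraries lay below all TPMCa and TPMR1 libraries, which held for 18.5% of all genes. The others were the centromeric histone Cenpa (40.5 to 98.4 CPM), the kinetochore corona protein Cenpf (27.2 to 61.1 CPM), and Ndc80 (10.4 to 24.2 CPM), Nuf2 (11.3 to 35.8 CPM) and Spc25 (12.5 to 24.1 CPM) of the complex that grips microtubules. In all 7, both TPMCa libraries were above both TPM libraries, which held for 29.1% of all genes.

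Among the 9 kinesins listed here, 3 fell in TPK against the mean of TPMCa and TPMR1 in edgeR. Kif15, a motor that helps to keep the spindle bipolar, on chromosome 9 of GRCm38 from 122951046 to 123018733, lay at 14.1 and 26.9 CPM in TPM, 41.9 and 36.1 CPM in TPMCa, 20.8 and 60.9 CPM in TPMR1 and 7.26 and 9.95 CPM in TPK. Kif15 had the largest change of the 42 genes (log2 fold change -2.21 ± 0.55 (SE), adjusted p = 0.0423, edgeR), with unequal replicates in TPMR1 and in TPM. Kif20b, a motor of the midzone and of cytokinesis, on chromosome 19 of GRCm38 from 34922361 to 34975745, lay at 28.9 and 26.5 CPM in TPM, 32.6 and 39.2 CPM in TPMCa, 39.5 and 46.1 CPM in TPMR1 and 19 and 19 CPM in TPK. Its TPK libraries were nearly equal and below all others (log2 fold change -1.05 ± 0.24 (SE), adjusted p = 0.0346, edgeR). Kif20a, which brings passenger proteins to the midzone, on chromosome 18 of GRCm38 from 34624613 to 34633277, lay at 34.8 and 50 CPM in TPM, 73 and 67.5 CPM in TPMCa, 50.2 and 89 CPM in TPMR1 and 31 and 30.3 CPM in TPK. It passed by a narrow margin (log2 fold change -1.19 ± 0.31 (SE), adjusted p = 0.05, edgeR), and 1271 of its 4338 exon bases overlap Cdc23 on the opposite strand. Kif11, or Eg5, the motor that pushes the spindle poles apart, lay at 62.7 and 62.8 CPM in TPM, 99.3 and 95.5 CPM in TPMCa, 67.5 and 146 CPM in TPMR1 and 45.4 and 42.4 CPM in TPK, with both TPK libraries below all others and no call (log2 fold change -1.21 ± 0.33 (SE), adjusted p = 0.0563, edgeR). The remaining 5 were the microtubule-depolymerizing Kif2c (24.5 to 47.3 CPM), the chromokinesins Kif4 (21 to 43.8 CPM) and Kif22 (22.2 to 68.9 CPM), Kif18a (7.05 to 19.3 CPM), which dampens chromosome movements, and Kif23 (15.5 to 65.6 CPM), a subunit of centralspindlin. In all 9 kinesins both TPMCa libraries were above both TPM libraries, as in 29.1% of all genes. Of the Kif4 exon bases, 832 overlap Pdzd11 on the opposite strand.

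Of the spindle and midzone proteins, Ect2, the exchange factor that switches on RhoA at the cleavage furrow, on chromosome 3 of GRCm38 from 27097222 to 27153878, lay at 35.8 and 37 CPM in TPM, 58.4 and 41.8 CPM in TPMCa, 57.4 and 73.8 CPM in TPMR1 and 29.3 and 27.3 CPM in TPK. Ect2 fell in TPK against the mean of TPMCa and TPMR1 (log2 fold change -1.02 ± 0.25 (SE), adjusted p = 0.0416, edgeR). Both of its TPK libraries were below all others. Anln, or anillin, which organizes the contractile ring, lay at 57 and 48.6 CPM in TPM, 79.9 and 78.2 CPM in TPMCa, 68.3 and 112 CPM in TPMR1 and 52.3 and 58.4 CPM in TPK. Tpx2, an activator of Aurora A on the spindle, lay at 69.1 and 84.7 CPM in TPM, 156 and 110.0 CPM in TPMCa, 85.1 and 130.3 CPM in TPMR1 and 74.8 and 53.3 CPM in TPK. Prc1, which bundles midzone microtubules, lay at 53.3 and 56.5 CPM in TPM, 95.4 and 80.1 CPM in TPMCa, 79.3 and 110.2 CPM in TPMR1 and 69.3 and 60.1 CPM in TPK. For Prc1, TPK was above TPM in both libraries, and 911 of its exon bases overlap Rccd1 on the opposite strand. Foxm1, a transcription factor of late cell cycle genes, lay at 32.4 and 35.5 CPM in TPM, 39.9 and 50.2 CPM in TPMCa, 43.9 and 65.6 CPM in TPMR1 and 39.9 and 23.9 CPM in TPK (log2 fold change -0.64 ± 0.31 (SE), adjusted p = 0.215 in TPK, edgeR), and 144 of its exon bases overlap Tex52 on the same strand. Mki67, which coats mitotic chromosomes and marks cycling cells, lay at 175 and 177 CPM in TPM, 281 and 268 CPM in TPMCa, 255 and 307 CPM in TPMR1 and 186 and 136 CPM in TPK. All 4 TPMCa and TPMR1 libraries of Mki67 were above the other 4, but the change in TPK did not pass (log2 fold change -0.79 ± 0.23 (SE), adjusted p = 0.0657, edgeR), nor did that in TPMCa (log2 fold change 0.64 ± 0.26 (SE), adjusted p = 0.211) or TPMR1 (log2 fold change 0.67 ± 0.26 (SE), adjusted p = 0.18) against TPM.

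**Figure D4:**
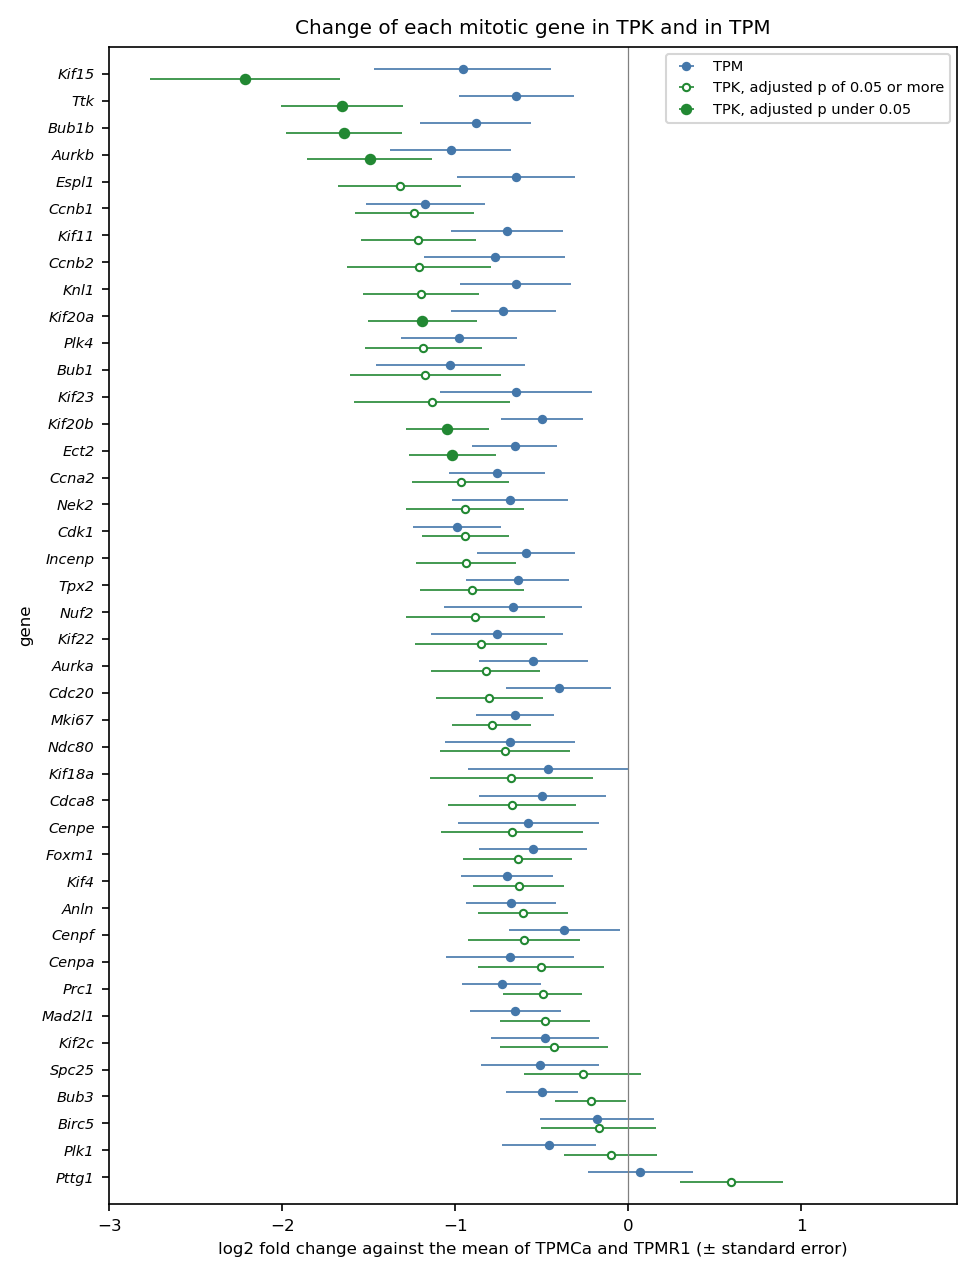
Fitted log2 fold change (horizontal axis) with its standard error for each of the 42 genes, in TPK and in TPM, each against the mean of TPMCa and TPMR1. In TPK 41 of 42 points lie left of 0, from Kif15 at -2.21 to Plk1 at -0.10, and filled green points mark the 7 genes with an adjusted p under 0.05.

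Compared per length of the exons in GENCODE M21, Cdc20 was the most abundant of the 42 transcripts, with a mean CPM per kilobase of 52.2 in TPM, 76.4 in TPMCa, 62.3 in TPMR1 and 39.5 in TPK. Ccnb2 had 25 in TPM, 40 in TPMCa, 45.6 in TPMR1 and 18.4 in TPK. Kif18a, at 0.979 in TPM, 1.57 in TPMCa, 1.16 in TPMR1 and 0.845 in TPK, and Kif15, at 1.86 in TPM, 3.54 in TPMCa, 3.71 in TPMR1 and 0.781 in TPK, were among the least abundant. Across the 8 libraries, the log2 level of most genes followed the median of the other 41: Pearson's r was 0.98 for Kif22, 0.97 for Aurkb and 0.96 for Tpx2, and it was lowest for Pttg1 at -0.52 and Plk1 at 0.49. The points share libraries and their depth, and these r values over 8 libraries are descriptions only.

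The models with an added PI3K pathway edit were also compared with TPM itself. In TPMCa, 41 of 42 genes were above TPM (49.3% of all genes), with a median log2 fold change of 0.68 against -0.01 over all genes tested, and both TPMCa libraries were above both TPM libraries in 40 of 42 genes, which held for 29.1% of all genes. In edgeR 0 of the 42 passed an adjusted p under 0.05, when 3.48% of all genes did, 0.466% higher and 3.02% lower. DESeq2 called 1 of the 42 higher, when it called 872 of 20310 genes higher. At an unadjusted p under 0.05, 7 were higher (8.95% of all genes). Of these, 4 had a log2 fold change beyond 1 (18.9% of all genes in either direction, 1155 of 15875 genes higher). After Cdk1, the smallest p-values were those of Ccnb1 (log2 fold change 1.17 ± 0.38 (SE), adjusted p = 0.144) and Aurkb (log2 fold change 1.14 ± 0.39 (SE), adjusted p = 0.161, edgeR). In TPMR1, 41 of 42 were above TPM as well (51.6% of all genes), with a median of 0.67 against 0.03, but both libraries were above TPM in only 27 genes, against 24.5% of all genes. Again 0 of 42 passed in edgeR, when 5.58% of all genes did, 1.08% higher and 4.5% lower. DESeq2 called 2 of the 42 higher, when it called 1085 of 16372 genes higher. At an unadjusted p under 0.05, 10 were higher (9.48% of all genes). Of these, 1 had a log2 fold change beyond 1 (20.1% of all genes in either direction, 1196 of 15875 genes higher). Ccnb1 (log2 fold change 1.17 ± 0.38 (SE), adjusted p = 0.129) and Ect2 (log2 fold change 0.85 ± 0.28 (SE), adjusted p = 0.131, edgeR) followed Cdk1. Without replicate 2 of TPMR1 the median dropped to 0.25. Both comparisons use the same TPM libraries.

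Between TPMR1 and TPMCa the 42 genes were split in direction. In TPMR1, 18 were higher and 24 lower, when 51.0% of all genes were higher, with a median of -0.02. There edgeR called 0 of 42 and 0% of all genes, while DESeq2 called 0 of 42 and 5.07% of all genes. At an unadjusted p under 0.05 there were 0 of 42 (11.8% of all genes), and 0 with a log2 fold change beyond 1 as well (10.5%). The smallest p-values were those of Bub3 (log2 fold change 0.35 ± 0.24 (SE), adjusted p = 0.582), Ect2 (log2 fold change 0.39 ± 0.28 (SE), adjusted p = 0.597) and Cenpa (log2 fold change -0.58 ± 0.42 (SE), adjusted p = 0.599, edgeR). Between TPK and TPM, 12 genes were higher and 30 lower in TPK, when 50.8% of all genes were higher, with a median of -0.21 against 0.01 over all genes. In this comparison edgeR called 0 of 42 and 0% of all genes, and DESeq2 called 0 of 42 and 1.52% of all genes. Ttk alone was lower at an unadjusted p under 0.05 (3.80% of all genes). Its log2 fold change was beyond 1 (5.28% of all genes in either direction, 469 of 15875 genes lower). After Ttk came Kif15 (log2 fold change -1.26 ± 0.58 (SE), adjusted p = 0.705) and Bub1b (log2 fold change -0.76 ± 0.36 (SE), adjusted p = 0.708, edgeR). Both TPK libraries were below both TPM libraries in 10 of the 42 genes and above them in 4, against 23.5% and 24.4% of all genes. Set against the mean of TPMCa and TPMR1, TPM was lower in 41 of 42 genes with a median of -0.65, when 48.8% of all genes were higher. In edgeR 0 were called, when 8.89% of all genes were, 1.45% lower and 7.44% higher. DESeq2 called 5 of the 42 lower, when it called 1152 of 16766 genes lower. At an unadjusted p under 0.05, 14 were lower (9.28% of all genes). Of these, 3 had a log2 fold change beyond 1 (20% of all genes in either direction, 1038 of 15875 genes lower). The smallest p-values were those of Cdk1 (log2 fold change -0.99 ± 0.25 (SE), adjusted p = 0.0614), Ccnb1 (log2 fold change -1.17 ± 0.34 (SE), adjusted p = 0.0896) and Prc1 (log2 fold change -0.73 ± 0.23 (SE), adjusted p = 0.109, edgeR). This comparison and that of TPK share the TPMCa and TPMR1 libraries. A single test for any difference among the 4 models called 0 of 42 in edgeR, when 7.32% of all genes were called. At an unadjusted p under 0.05 there were 16 (27.9% of all genes). DESeq2 called 14, and the share of all genes it called in that test was not computed.

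Other genes of the cell cycle were read from lists that share no gene with the 42. In TPK against the mean of TPMCa and TPMR1, the median log2 fold change was -0.84 over 24 further spindle and cytokinesis genes, -0.76 over 21 condensin and cohesin genes, -0.53 over 31 further kinetochore genes, -0.36 over 16 genes of the anaphase-promoting complex and its regulators, -0.27 over 10 MuvB and E2F4 partner genes and -0.80 over 33 replication genes. Of the spindle and cytokinesis list, 4 of 24 fell: the augmin subunits Haus4 (-1.27) and Haus6 (-1.26), the centralspindlin subunit Racgap1 (-1.15) and the citron kinase Cit (-1.46), with 0 higher (edgeR, adjusted p under 0.05), when 4.06% of all genes tested were called lower. The kinetochore list had 2 of 31 lower, Cenpw (log2 fold change -1.67 ± 0.30 (SE), adjusted p = 0.0161, edgeR) and Kntc1 (-1.37). The condensin subunit Ncapg2 (-1.17) and the anaphase-promoting complex subunit Anapc5 (-0.89) were the single calls of their lists, and the MuvB and E2F4 list had 0 calls with 3 of 10 lower at an unadjusted p under 0.05, against 13.3% of all genes. In the list of 13 regulators of mitotic entry the phosphatases that activate cyclin-dependent kinases went opposite ways, with Cdc25a lower (log2 fold change -1.61 ± 0.37 (SE), adjusted p = 0.0344, edgeR) and Cdc25b higher (log2 fold change 1.45 ± 0.34 (SE), adjusted p = 0.0362, edgeR). Of 33 replication genes 7 fell, among them Pole (log2 fold change -1.68 ± 0.28 (SE), adjusted p = 0.0128, edgeR), the catalytic subunit of DNA polymerase epsilon, and the clamp loader subunit Rfc4 (-1.49), beside Mcm6, Cdc45, Cdc6, Cdt1 and Pola1.

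Against TPM, the same lists were higher in both PI3K-edited models. The replication genes had a median of 0.84 in TPMCa and 0.62 in TPMR1, the further spindle genes 0.54 and 0.47, and the condensin and cohesin genes 0.54 and 0.44. Calls were few. Pola1, a DNA polymerase alpha subunit, rose in TPMCa (log2 fold change 1.46 ± 0.26 (SE), adjusted p = 0.0384, edgeR), and Cenpw, a histone-fold kinetochore protein, rose in TPMR1 (log2 fold change 1.55 ± 0.33 (SE), adjusted p = 0.0455, edgeR). No other gene of these 7 lists passed in edgeR in these 2 comparisons.

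**Figure D5:**
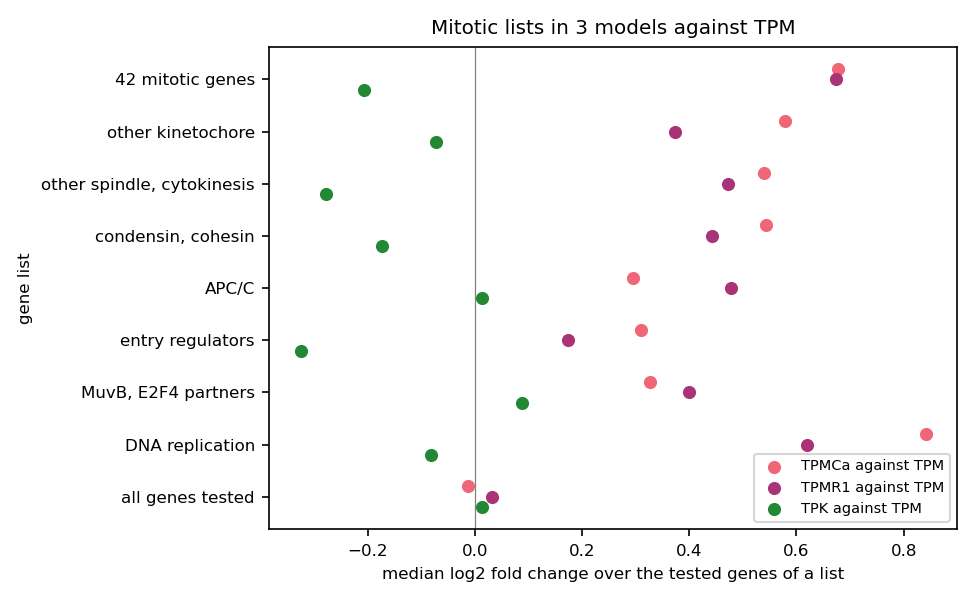
Median log2 fold change (horizontal axis) of each gene list in TPMCa, TPMR1 and TPK against TPM, which the 3 comparisons share. The 42 mitotic genes lie at 0.68, 0.67 and -0.21, and all genes tested lie near 0.

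Markers of other cell types moved with the models as well. The 5 endothelial genes summed to between 45.8 and 138 CPM in TPM and TPK, and to 362 and 513 CPM in TPMCa and 138 and 552 CPM in TPMR1, where the lower library is the same replicate 1 that was low for the mitotic genes. Macrophage markers ranged from 302 to 4378 CPM and neutrophil markers from 14.4 to 2187 CPM, neither with the split seen in the mitotic genes. Lymphocyte markers reached at most 141 CPM, in replicate 2 of TPMCa, and the T cell gene Cd3e was at 0 counts in 1 library of TPM and 1 of TPMR1, under the floor of 3 counts. Their part in the differences of the mitotic genes was not tested.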

How the data were processed

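Bulk polyA RNA libraries of 4 mouse endometrial cancer models were analyzed, with 2 libraries per model, and each library's group is the model its label names. The labels TPMPik3ca and TPMPik3r1 are written TPMCa and TPMR1 here, and the TPM columns carry a slightly longer heading. The counts were deposited by the authors as whole reads per gene symbol, made from reads aligned to mm10 with STAR per the submitters' processing notes. The counter, its annotation and its use of strand are not given in the sources used here. A table of counts normalized by the authors with DESeq2 was not used.

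Total counts lay between 15748396 and 26943611 per library. Among 24419 symbols, 25 were dates, and 4109 rows were 0 throughout. The 42 genes and the other lists were chosen with earlier results of these data known. Counts were scaled by TMM, filtered with filterByExpr, which kept 15875 genes, and fitted by the quasi-likelihood method of edgeR 4.0.16 in R 4.3.3 over all 8 libraries, with a term for the model. The standard error is the log2 fold change divided by the root of F. The Benjamini-Hochberg adjustment was made over all genes tested, with a threshold of 0.05. Log2 CPM used a prior count of 2. Permuting 2 against 2 libraries cannot give a p under 0.05, so no exact permutation test was run. The replicates of a model came from separate mice per the figure legends of the study, which the labels do not name.

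Statistics are given for the genes called in each comparison, or the 3 with the smallest p, and for 13 genes set as Mki67, Foxm1, Aurka, Aurkb, Plk1, Plk4, Bub1, Bub3, Cdk1, Ccnb1, Cdc20, Kif11 and Cenpe. Alternatives were DESeq2 1.42.0, its size factors, library size alone, no filter, a filter of 1 CPM in 4 libraries, a replicate block, a fit of only the models compared, the study's rule (unadjusted p under 0.05, log2 fold change beyond 1) and leaving out each library. The thresholds of that rule were applied here to edgeR values, where the study used DESeq2. TPK against TPMCa or TPMR1 alone was added after the data had been seen. In simulated counts for TPK against the mean of TPMCa and TPMR1, with 15600 genes, the share called was 0% at a change of 2-fold, 25.4% at 4-fold and 69.7% at 8-fold, and 3 of 15400 unchanged genes were called. Only 67, 67 and 66 genes were changed, when 2287 genes were called in the data. The adjustment was therefore stricter in the simulation, and its shares do not give the power of the test on the data. Promoter windows came from RefSeq on GRCm38.p6 and gene positions from GENCODE M21 on GRCm38, the build equal to mm10.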

Additional observations from a re-analysis of the deposited data

How the results depend on the processing

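The lowest count of a mitotic gene in a library was 91, for Ttk in replicate 2 of TPK, above the floor of 3 counts. The count of mitotic genes called lower in TPK than in the mean of TPMCa and TPMR1 was 7 in edgeR, when 644 of 15875 genes were. With DESeq2 it was 20, which held all 7, when 2010 of 16766 genes were called lower. With the size factors of DESeq2 it was 9 (688 of 15875 genes), and 9 with the stricter filter (733 of 13979). It was 6 with library size alone (722 of 15875) and 4 without a filter (598 of 20310). A fit of only the models compared gave 1 (326 of 15455), and the study's thresholds on edgeR values 15 (1541 of 15875). The edgeR count was 0 against TPMCa alone (227 of 15875 genes called lower) and 4 against TPMR1 alone (525 of 15875), both added after the data had been seen. Leaving out 1 library gave between 0 and 18 genes, with a median log2 fold change between -1.15 and -0.65. With DESeq2, 1 gene was called higher in TPMCa against TPM (872 of 20310 genes) and 2 higher in TPMR1 against TPM (1085 of 16372). It called 5 lower in TPM against the TPMCa and TPMR1 mean (1152 of 16766). For any difference it called 14, with no share of all genes computed. The study's thresholds on edgeR values gave 4 genes higher in TPMCa against TPM (1155 of 15875 genes) and 1 higher in TPMR1 against TPM (1196 of 15875). They gave 3 lower in TPM against the TPMCa and TPMR1 mean (1038 of 15875) and 1 lower in TPK against TPM (469 of 15875). Leaving out 1 library gave medians of 0.58 to 0.78 in TPMCa against TPM and 0.25 to 0.91 in TPMR1 against TPM. The medians were -0.45 to 0.27 in TPMR1 against TPMCa and -0.49 to 0.03 in TPK against TPM. They were -0.79 to -0.47 in TPM against the TPMCa and TPMR1 mean. Plk1 in TPK (-0.10) turned to 0.052 without TPMR1 replicate 2 and to 0.032 without TPK replicate 1, within a range of -0.26 to 0.052 over the libraries left out. The cause of these shifts was not tested. The fit with the replicate number as a block called 2 of the 42 genes lower in TPK against the mean of TPMCa and TPMR1, when it called 348 of 15875 genes lower. Deviations of libraries with the same number correlated between -0.07 and -0.01 over models. Whether the numbers pair libraries is not stated in the labels, and these correlations cannot decide it. The block changed no other count of calls.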
